A study of Mus musculus with 12 samples.

Results

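The TRAF adaptors are the genes of the nCounter mouse immune panel whose symbol is Traf followed by a digit. They were 6 of the 545 endogenous genes counted, Traf1 to Traf6, each measured in 6 animals at postnatal day 28 (P28) and 6 animals at postnatal day 14 (P14). All 12 animals were male pups of the strain labelled Balbc, raised under control conditions and taken from different litters, so the samples of an age are separate animals. Microglia, the resident macrophages of the brain, had been isolated from the hippocampus with a Percoll gradient and flow sorting. The panel captures each RNA with a fluorescent barcode and counts barcodes without sequencing, here after cDNA synthesis and PCR. The comparison asks how these genes differ between the ages in the course of microglial maturation.

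TNF receptor-associated factors sit on the inner face of receptors that have no enzyme activity of their own and pass the signal to kinases and ubiquitin ligases. TRAF2 carries the signal of TNF receptors and brings the cIAP ubiquitin ligases to them, and TRAF6 is the ubiquitin ligase through which Toll-like receptors, the IL-1 receptor and RANK activate the kinase TAK1. Both routes lead to the IKK complex, NF-kB and the MAP kinases. In microglia these routes are best known from the response to TNF, IL-1 and microbial products.

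Of the 6 genes, Traf2 was lower at P28 than at P14 and was the only one to pass the test. Traf2 averaged 795 ± 47.8 scaled counts at P28 and 1200.0 ± 212 scaled counts at P14 (SD, n = 6 each). Traf3, Traf4, Traf5 and Traf6 did not pass, and Traf1 was mostly under background and was not tested. The Traf6 level of 1 animal, P28 sample 138, was 5806 scaled counts, more than any other sample had. A scaled count is a raw count divided by the sample's factor, which is the geometric mean of 6 reference genes set to a geometric mean of 1 over the 12 samples.

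The 5 tested genes were among 366 that were present, meaning above the mean plus 2 SD of the lane's negative-control probes in at least 40% of samples. Of these 366 genes, 112 (30.6%) passed edgeR's quasi-likelihood test at a false discovery rate of 0.05, 51 of them (13.9%) lower and 61 (16.7%) higher at P28. The count for the TRAF genes was 1 of 5, which is not above that background. The 6 scaled counts of each age did not overlap for 76 genes (20.8%), and for 0 of the 5 TRAF genes. Raw totals of the 545 genes were 1025196 to 1534665 at P28 and 356398 to 1316430 at P14, and P14 samples 4 and 5 had the 2 lowest. P14 samples 4 and 5 also stood apart on the second principal component, at 5.30 and 9.16 against -6.83 to -3.26 in the other P14 samples. The positive-control probes had geometric means of 1069 to 1235 counts at P28 and 542 to 651 counts at P14, without overlap, so age and any difference in how the lanes were run cannot be told apart.

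Of 11 microglia and macrophage markers counted, all were present, and their summed level was 273178 to 308585 scaled counts at P28 and 247495 to 308903 at P14. Of the lists for other blood cells, 6 of 13 T cell markers were present (376 to 445 scaled counts in sum at P28 and 417 to 489 at P14), but Cd3d, Cd3e, Cd4 and Cd8a were not. Of 9 B cell markers 5 were present (3530 to 5038 at P28 and 2659 to 4743 at P14), without Pax5. Most of these counts were Blnk (means of 4174 at P28 and 3223 at P14). Neutrophil markers were present for 4 of 7 (4210 to 8292 at P28 and 2921 to 8708 at P14), without Camp, S100a8 and S100a9. Their sums were highest in P14 sample 5, P28 sample 138 and P14 sample 4. These sums are mostly the 1 gene Csf3r (means of 5186 at P28 and 4626 at P14). Cxcr2 was above background in 0 of 6 P28 samples and passed as lower (14.1 at P28 and 46.7 at P14). NK cell markers were present for 4 of 5 (205 to 309 at P28 and 74.2 to 213 at P14), and those of monocytes and border macrophages for 6 of 8 (435 to 604 at P28 and 366 to 601 at P14). Members of several of these lists went both ways. Of the T cell markers 2 passed as higher and 2 as lower, and of the B cell markers 1 and 1. Of the NK cell markers 1 passed as higher and 2 as lower. Among the markers of monocytes and border macrophages 1 passed as higher and 2 as lower. The 4 endothelial and mural markers counted, all present, summed to 6179 to 14622 scaled counts at P28 and 3063 to 4850 at P14. Of these, 2 passed as higher, Cd34 among them (means of 6972 at P28 and 1198 at P14), and Cdh5 passed as lower (213 and 329). For the 4 markers of neurons and oligodendrocytes, also all present, the sums were 6673 to 10174 at P28 and 4333 to 7030 at P14. Most of these counts were App (means of 7388 and 5335). Of these 4, 2 passed as higher, and Cx3cl1 passed as lower (8.18 and 27.0). Cx3cl1 was above background in 0 of 6 P28 samples. The part of such cells in the results was not tested. In RNA from a sorted pool, fewer cells of a type and less RNA per cell cannot be told apart.

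The upstream sequences of 3 TRAF genes are printed. Traf2 is the gene that fell, and Traf5 and Traf6 are among the genes against which its within-sample ratio is read further on. Its ratio to Traf3 is read there as well, but the Traf3 sequence is not printed. The sequences are the 250 bases before the start site that RefSeq gives on GRCm38.p6, written 5′ to 3′ on the gene's strand. The positions are chr2:25546941-25547190, minus strand, for Traf2, chr1:192092600-192092849, minus strand, for Traf5, and chr2:101678170-101678419, plus strand, for Traf6. Capitals mark matches on either strand to TGACGT (the core of the cAMP response element), GGGCGG (the Sp1 box) and GAGGAA (an ETS core of the kind PU.1 binds).
Traf2: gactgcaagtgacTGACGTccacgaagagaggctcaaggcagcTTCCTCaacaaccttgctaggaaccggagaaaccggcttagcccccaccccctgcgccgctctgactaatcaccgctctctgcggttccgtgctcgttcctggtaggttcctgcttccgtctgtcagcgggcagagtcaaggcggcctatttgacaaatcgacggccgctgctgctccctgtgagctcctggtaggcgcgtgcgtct
Traf5: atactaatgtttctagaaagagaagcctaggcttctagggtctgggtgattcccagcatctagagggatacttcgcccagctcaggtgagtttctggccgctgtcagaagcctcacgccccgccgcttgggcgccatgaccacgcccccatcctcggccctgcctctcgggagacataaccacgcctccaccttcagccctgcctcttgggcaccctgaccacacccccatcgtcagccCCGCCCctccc
Traf6: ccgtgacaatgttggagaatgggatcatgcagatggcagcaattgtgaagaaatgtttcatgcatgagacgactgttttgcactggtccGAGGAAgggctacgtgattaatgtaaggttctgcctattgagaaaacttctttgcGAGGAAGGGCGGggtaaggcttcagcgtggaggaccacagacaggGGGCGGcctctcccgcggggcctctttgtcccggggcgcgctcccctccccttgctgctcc

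The Traf2 window held 1 TGACGT at bases -237 to -232 from the start site and 1 GAGGAA on the other strand at -207 to -202, and no GGGCGG. Among 32851 RefSeq windows of the same length, 6.47% held TGACGT, 23.3% held GAGGAA and 32.7% held GGGCGG. The Traf5 window held 1 GGGCGG on the other strand, at -11 to -6. The Traf6 window held 2 GGGCGG and 2 GAGGAA, and the GAGGAA at -106 to -101 adjoins a GGGCGG at -100 to -95. Of the other members, Traf3 and Traf4 held 4 GGGCGG each, and Traf1 held none of these 3 motifs. The kappaB consensus of NF-kB was matched in the Traf3 window only among the 6, at -10 to -1, and in 3.9% of all windows. The Traf3 window ends at base 111166369 of chr12, past the annotated gene start at 111166321, so this match lies inside the annotated gene. The Traf1 and Traf4 windows also run into their annotated genes. Of the 2 other motifs searched on both strands, CCAAT (the NF-Y box, in 33.8% of all windows) was in the Traf1 window only and TGANTCA (the AP-1 site, in 6.75%) in none of the 6. All 6 genes were matched to these windows by symbol. The transcript named for the Traf3 probe was not found in the RefSeq annotation used here, while those of the other TRAF genes were. The motifs were chosen after the sequences had been read, a match is a run of letters and not a shown binding site, and the coding sequences were not used here.

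Traf2 encodes the adaptor of TNFR1, TNFR2 and CD40 that recruits the cIAPs and, together with TRAF3, keeps the kinase NIK low in resting cells. Its scaled counts had a lowest value of 747, a median of 790.5 and a highest of 857 at P28, against 824, 1253 and 1427 at P14. The ages overlapped in 1 P14 animal: P14 sample 5, the sample with the fewest counts, had 824 scaled counts (333 raw counts), while P28 samples 134, 135 and 138 had 825, 857 and 831. The other P14 samples had 1118 or more. Traf2 was lower at P28 by a log2 fold change of -0.60 ± 0.12 (SE), a fold of 0.662 with a 95% interval of 0.550 to 0.796 (edgeR's quasi-likelihood test, adjusted p = 0.00217 over 366 genes). Without P14 samples 4 and 5 the log2 fold change of Traf2 was -0.73 ± 0.08 (adjusted p = 1.36e-05, edgeR), in a fit where 43.2% of the 366 genes passed and 24.6% were lower. In the authors' deposited table, Traf2 has a fold of 0.73 with their unadjusted p of 0.0022.

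Across the alternatives, Traf2 kept its direction and its call in all 12 fits that left out 1 sample (log2 -0.68 to -0.54) and in the other 16 settings tried. Scaled to positive controls alone, its log2 fold change was -1.39 ± 0.36 (edgeR, adjusted p = 0.00718), on a scale where the median of all 366 genes was -0.74 and 36.9% of them passed, 34.7% as lower. With the authors' factors it was -0.47, where 35.2% passed and 9.84% were lower. Traf3, Traf4 and Traf5 each passed in 1 of the alternatives run for them and Traf6 in 0, as the plot of fold changes by scaling shows for the main ones.

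**Figure D1:**
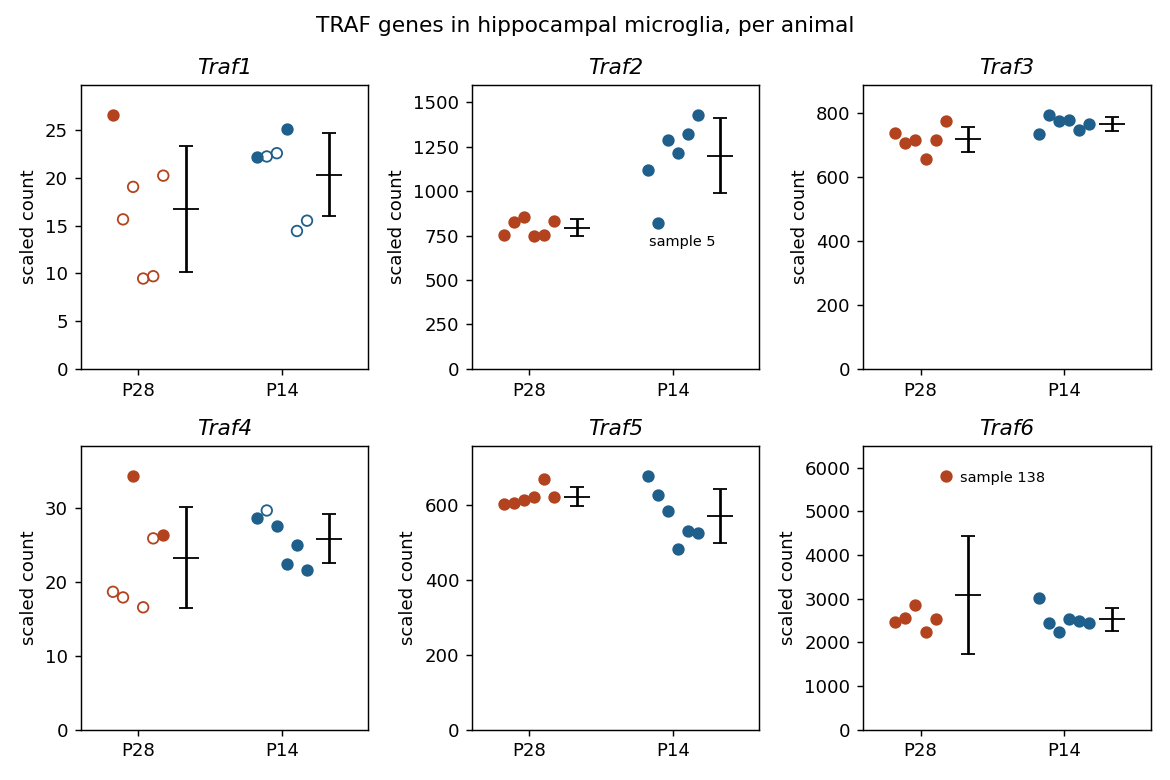
Scaled counts of the 6 TRAF genes in each animal, P28 left of P14 (filled: above the lane's background; open: not; bar: mean and SD, n = 6). Traf2 lay between 747 and 857 at P28 and, except in P14 sample 5, at 1118 or more at P14; Traf6 was 5806 in P28 sample 138.

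**Figure D2:**
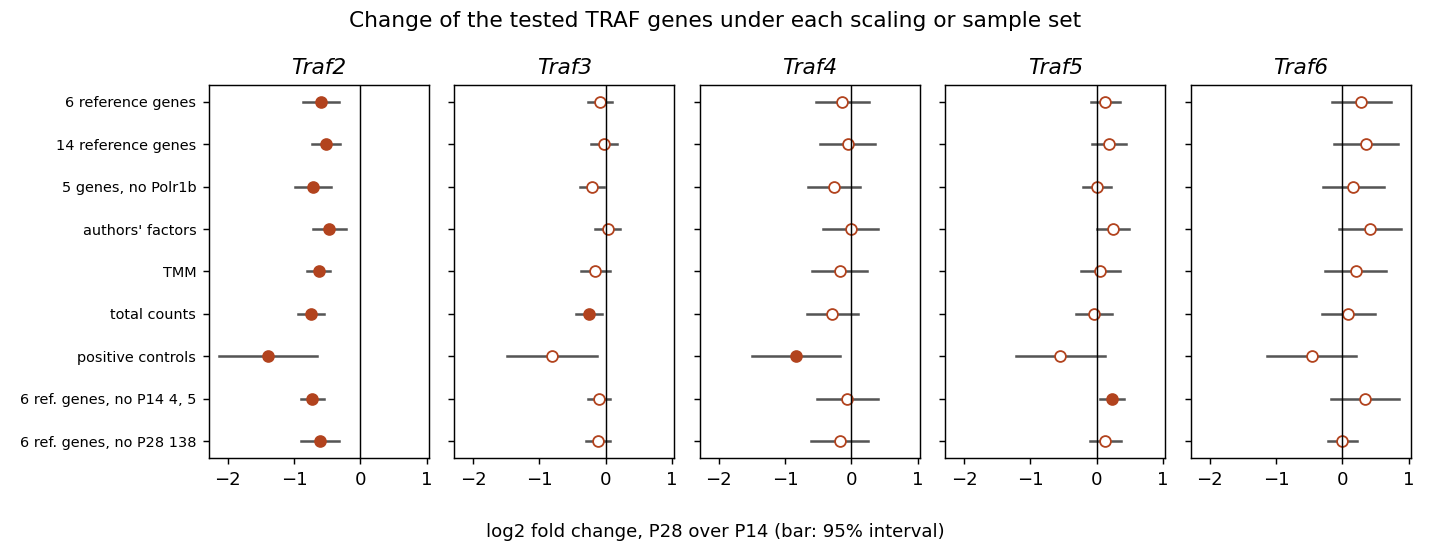
Log2 fold change, P28 over P14, of the 5 tested TRAF genes (points, filled where the adjusted p is under 0.05; bars, 95% intervals of edgeR) under 7 scalings and with samples left out. Traf2 is below 0 in every row, from -0.47 with the authors' factors to -1.39 with positive controls.

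Traf3 encodes the adaptor that holds NIK in check with TRAF2 and is needed for induction of type I interferon downstream of TRIF and MAVS. It had a lowest value of 655, a median of 713 and a highest of 775 scaled counts at P28, against 733, 770 and 791 at P14, where its spread was small (coefficient of variation 5.46% at P28 and 2.83% at P14, against medians of 15.6% and 23.1% over all present genes). The ages overlapped, with 4 of 6 P28 samples below the lowest P14 sample. Its log2 fold change was -0.09 ± 0.08 (edgeR, adjusted p = 0.441), and the 95% interval of the fold, 0.827 to 1.06, does not reach down to the fold of 0.662 that Traf2 showed. With total counts as the scale, where 40.2% of genes passed and 26.2% were lower, Traf3 passed as lower (-0.26, edgeR, adjusted p = 0.037).

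Traf5 encodes the family member closest to TRAF3 in sequence, which binds CD40, CD27 and OX40 and, in mouse T cells, limits signalling by the IL-6 receptor chain gp130. Scaled counts of Traf5 had a lowest value of 604, a median of 618 and a highest of 670.2 at P28, against 484, 558 and 678 at P14. At P14 the 2 highest were those of samples 4 and 5, at 678 and 628, and the other 4 samples had 584 or less. All P28 samples therefore lay above those 4 P14 samples and within the range of the 6. The log2 fold change was 0.13 ± 0.10 (edgeR, adjusted p = 0.396; fold 1.09, 95% interval 0.937 to 1.27). Traf5 passed as higher only without P14 samples 4 and 5 (0.23 ± 0.08, edgeR, adjusted p = 0.0407), and its sign turned with total counts (-0.04) and with positive controls alone (-0.55). The authors' deposited table gives Traf5 a fold of 1.18 with an unadjusted p = 0.0206.

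Traf6 encodes the ubiquitin ligase of the Toll-like receptor and IL-1 receptor route. It had a lowest value of 2242, a median of 2545 and a highest of 5806 scaled counts at P28, against 2242, 2461 and 3024 at P14. The ages covered the same range apart from P28 sample 138, which had 5735 raw counts where the other P28 samples had 2292 to 3444. With that sample the log2 fold change was 0.28 ± 0.21 (edgeR, adjusted p = 0.331). Without it the P28 mean was 2531 ± 219 scaled counts (SD, n = 5) against 2526 ± 264 at P14 (SD, n = 6), and the log2 fold change was 0.00 ± 0.10 (edgeR, adjusted p = 0.983), with a 95% interval of the fold of 0.862 to 1.16.

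Among the TRAF genes, P28 sample 138 lay apart from the other P28 samples mainly in Traf6. On the log2 scale it lay 1.20 above their mean for Traf6, 0.26 for Traf4, 0.14 for Traf3 and 0.08 for Traf2, and at 0.00 for Traf5. Traf6 ranked 3 of 366 present genes in that difference, behind the interferon-induced chemokine Cxcl10 (2.07) and the cytokine receptor kinase Jak2 (1.37), and ahead of the kinase Map4k2 (1.16), the TGF-beta repressor Ski (1.15) and the receptor Notch1 (1.11). For 26 present genes this sample stood apart from the other 5 by Dixon's test, against 1 to 6 genes in any other sample. It also had the highest summed endothelial and mural markers (14622 scaled counts) and the highest summed neuron and oligodendrocyte markers (10174) of the 12 samples. Its summed neutrophil markers (8292) were the highest of the P28 samples. Most of these counts were Cd34 (11681), App (9804) and Csf3r (8177), respectively. By the same log2 difference, Cd34, Pecam1, Cdh5 and Pdgfrb of the endothelial and mural list lay at 0.98, 0.67, 0.29 and 0.11. The neutrophil list was mixed, with Csf3r at 0.84 and Ltf at 0.71, but Ccr3 at -0.46 and Cxcr2, under background at P28, at -0.21. The neuron and oligodendrocyte list was mixed as well. App lay at 0.51 and Cx3cl1, under background at P28, at 0.43, but Mbp at -0.24 and Ncam1 at -0.20. Among the P28 samples, sample 138 also had the highest summed microglia and macrophage markers (308585) and the lowest summed B cell markers (3530). The part of other cell types in its Traf6 level was not tested.

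**Figure D3:**
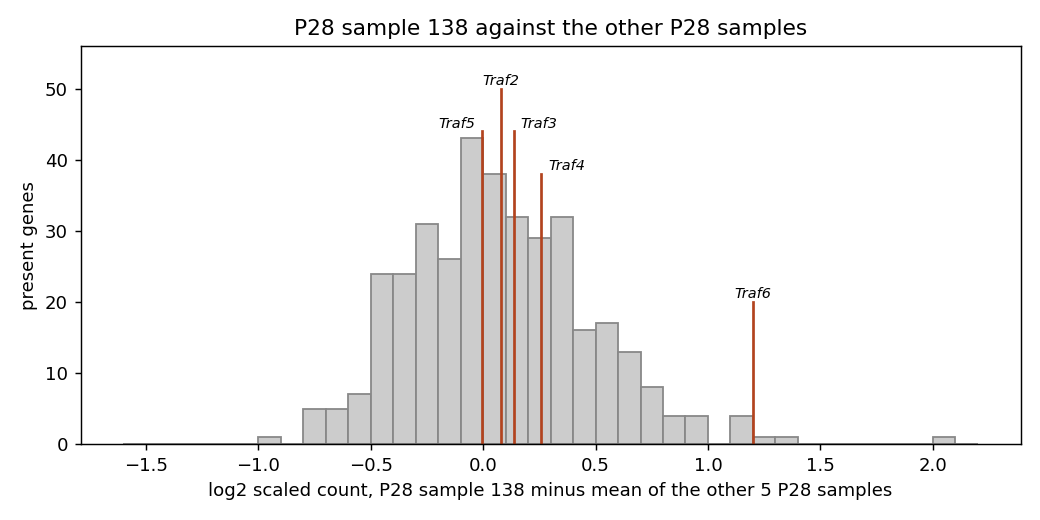
Number of present genes by the difference on the log2 scale between P28 sample 138 and the mean of the other 5 P28 samples; lines mark the TRAF genes and reach only as high as their label. Traf6 lies at 1.20, while Traf2 to Traf5 lie between 0.00 and 0.26.

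Traf4 encodes an adaptor known in mice from development of the airway and the neural tube rather than from immune receptors. Its raw counts were 16 to 36 at P28 and 12 to 33 at P14, close to the lane thresholds of 24.8 to 33.4 at P28 and 12.9 to 32.0 at P14. It was above background in 2 of 6 samples at P28 and 5 of 6 at P14, and so passed the presence filter mostly through P14, where most lanes had lower thresholds. Scaled counts were 23.3 ± 6.83 at P28 and 25.8 ± 3.35 at P14, all P14 samples fell in the range of the P28 samples, and the log2 fold change was -0.14 ± 0.19 (edgeR, adjusted p = 0.622). The 95% interval of the fold was 0.690 to 1.20. With positive controls alone Traf4 passed as lower (-0.83 ± 0.33, edgeR, adjusted p = 0.0466). On that scale the median of all 366 genes was -0.74 and 34.7% of them passed as lower.

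Traf1 encodes the member that lacks the RING domain, binds TRAF2 and the cIAPs, and is itself a textbook target gene of NF-kB. Raw counts were 12 to 37 at P28 and 9 to 28 at P14, above background in 1 of 6 and 2 of 6 samples. No fold change is given for it, and its RNA was not detectable above background in the other 9 samples at this depth.

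Ratios of TRAF genes within a sample do not depend on how the lanes are scaled. Probes differ in how well they capture their RNA, so only the change of a ratio between ages is read, not its level. Of the 10 pairs of tested genes, 3 differed between the ages after Benjamini-Hochberg adjustment over the 10 pairs, and all 3 hold Traf2. These 3 ratios share the Traf2 counts and are not separate observations. The ratio of Traf2 to Traf6 had a lowest value of 0.143, a median of 0.303 and a highest of 0.334 at P28, against 0.338, 0.507 and 0.587 at P14, without overlap. On the log2 scale it was lower at P28 by 0.78 on average (-1.87 ± 0.46 at P28 and -1.09 ± 0.34 at P14; exact two-sided permutation test, p = 0.00216, the smallest that 924 arrangements allow, adjusted p = 0.0216). Without P28 sample 138 that difference was -0.59.

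The ratio of Traf2 to Traf5 had a lowest value of 1.13, a median of 1.29 and a highest of 1.395 at P28, against 1.31, 2.35 and 2.71 at P14 (log2 difference -0.71, exact permutation p = 0.00866, adjusted p = 0.0433). For Traf2 to Traf3 these values were 1.03, 1.11 and 1.20 at P28, against 1.04, 1.61 and 1.87 at P14 (log2 difference -0.48, exact permutation p = 0.013, adjusted p = 0.0433). In both ratios P14 sample 5 lay within the P28 range, and the other 5 P14 samples lay above every P28 sample. With 1 sample left out, Traf2 to Traf5 passed in 3 of 12 cases and Traf2 to Traf3 in 2 of 12. Their adjusted p was up to 0.0866 (exact permutation). Then only 462 arrangements exist, and the smallest p they allow is 0.00433. The log2 differences stayed at -0.84 to -0.63 for Traf2 to Traf5 and -0.59 to -0.42 for Traf2 to Traf3. Traf2 to Traf6 passed in 12 of 12, but this was fixed in advance. Its ages do not overlap, so its p is 0.00433 whichever sample is left out. Its adjusted p (exact permutation) is then at most 0.0433.

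The other 7 pairs did not pass (exact permutation, adjusted p = 0.0703 to 0.894). Traf3 to Traf5 was lower at P28 by a log2 difference of -0.23 and did not pass (exact permutation p = 0.0281, adjusted p = 0.0703), Traf3 to Traf6 differed by -0.30 (adjusted p = 0.142, exact permutation) and Traf5 to Traf6 by -0.07 (adjusted p = 0.894, exact permutation). Without P14 samples 4 and 5, both Traf3 ratios passed (-0.33 to Traf5 and -0.36 to Traf6, adjusted p = 0.0159 each, exact permutation) and 6 of the 10 pairs differed.

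**Figure D4:**
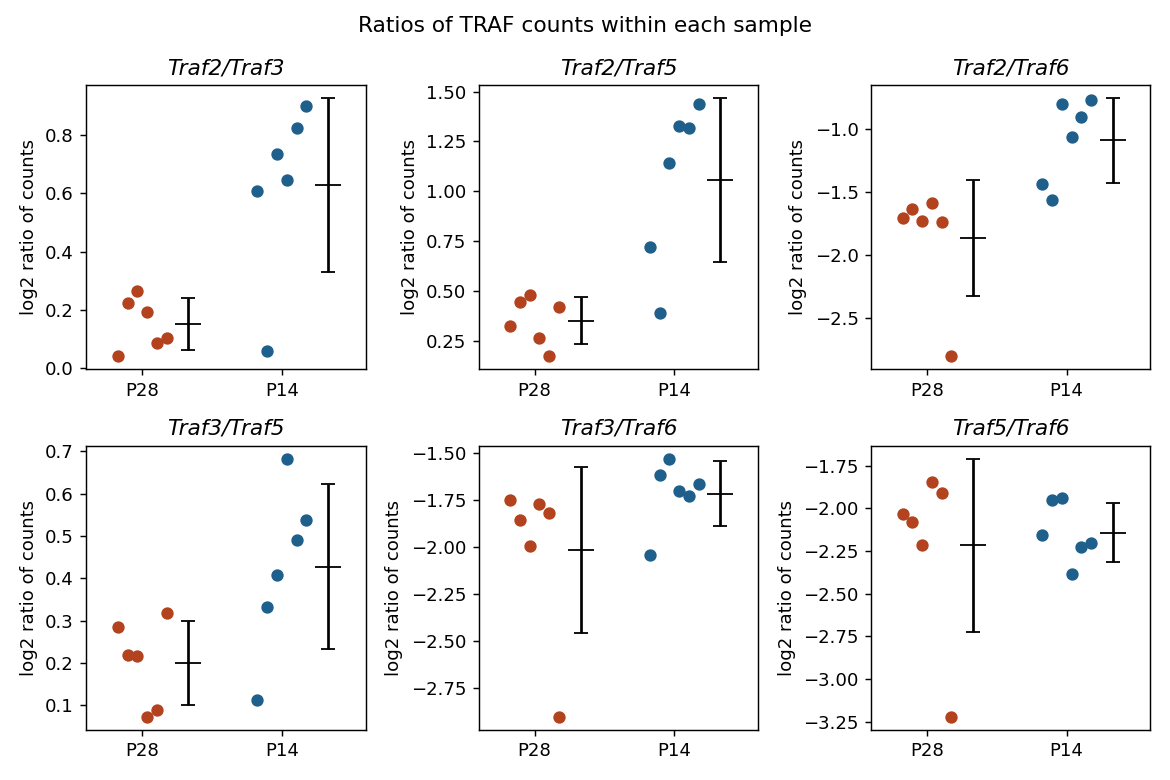
Log2 ratios of raw counts (with 1 added to each) of 6 pairs of TRAF genes within each sample, P28 left of P14 (bar: mean and SD, n = 6; axes do not start at 0). The ratio of Traf2 to Traf6 does not overlap between the ages, and P28 sample 138 is the lowest point of each ratio to Traf6.

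Receptors that recruit TRAF proteins, and their ligands, changed in both directions or not at all. Of 10 present receptors, 1 rose, 1 fell and 8 did not pass, with a median log2 fold change of 0.07 against 0.00 over all present genes. Over all present genes 16.7% rose and 13.9% fell, and whether the lists here and below differ from those shares was not tested. Tnfrsf11a, the receptor RANK, which signals through TRAF6, rose: it had a lowest value of 696, a median of 1134 and a highest of 1311 scaled counts at P28, against 148, 365 and 489 at P14 (log2 fold change 1.70 ± 0.28, edgeR, adjusted p = 0.000365). Ltbr, the lymphotoxin beta receptor, which uses TRAF2 and TRAF3, fell (83.0 to 98.2 at P28 and 103 to 144 at P14; -0.45 ± 0.12, edgeR, adjusted p = 0.0085). Tnfrsf4, the receptor OX40, did not pass (0.50 ± 0.22). Of 5 present ligands, 2 rose, the B cell survival factor Tnfsf13b (2.36 ± 0.17) and Tnf, the ligand of TNFR1 and TNFR2 (0.88 ± 0.17). Tnf had 1032 to 1397 scaled counts at P28 and 455 to 946 at P14, without overlap.

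The route from Toll-like, IL-1 and IL-17 receptors to TRAF6 held 16 present genes, of which 5 rose, 0 fell and 11 did not pass, beside 16.7% of all present genes that rose. Tlr3, a sensor of double-stranded RNA that signals through TRIF, was 3315 to 4922 scaled counts at P28 and 1897 to 2995 at P14 (0.65 ± 0.13, edgeR, adjusted p = 0.00148). Irak3, which brakes the IRAK kinases, rose (0.56 ± 0.14), as did Irak2, a kinase that binds TRAF6 (0.49 ± 0.12), Il17ra, the IL-17 receptor (0.45 ± 0.12), and Tlr9, a DNA sensor (0.28 ± 0.10). The adaptor Myd88 did not pass (-0.31 ± 0.15). All 5 calls were lost on the scale of the positive controls, where these genes were at -0.45 to -0.15. Tlr9 also lost its call in 9 of the 12 fits that left out 1 sample.

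Of 7 present genes of RNA sensing and interferon induction, the route that runs through TRAF3, 0 passed. Ikbke, an IKK-related kinase, had 46.1 to 89.0 scaled counts at P28 and 51.9 to 291 at P14 (-0.98 ± 0.36, edgeR, adjusted p = 0.0524). Irf5 (0.40 ± 0.17) and Irf7 (-0.86 ± 0.38), both transcription factors of interferon genes, did not pass either. Ikbke passed as lower without P14 sample 4, 5 or 81 or P28 sample 118. With both P14 samples 4 and 5 left out, 3 of the 7 passed, all as lower, Ikbke and Irf7 among them, in a fit where 43.2% of all present genes passed and 24.6% were lower.

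Next come the steps around and after the adaptors. Of 3 present genes of death-domain adaptors and ubiquitin editors, 0 passed: Tnfaip3, the NF-kB feedback enzyme A20, was at -0.48 ± 0.21, the adaptor Fadd at 0.39 ± 0.21 and Casp8 at 0.10 ± 0.18. The list of MAP3 kinases, IKK and NF-kB held 12 present genes. Of these, 2 rose, 3 fell and 7 missed the threshold, beside 16.7% of all present genes that rose and 13.9% that fell. Relb, the NF-kB subunit of the non-canonical route, fell (47.7 to 76.8 scaled counts at P28 and 81.0 to 145 at P14; -0.78 ± 0.18, edgeR, adjusted p = 0.00397). Nfkb1, the precursor of the subunit p50, fell as well (2619 to 3650 at P28 and 2552 to 5751 at P14; -0.68 ± 0.18, adjusted p = 0.00818 by edgeR), as did Card9, an adaptor of C-type lectin receptors (-0.41 ± 0.11). Card9 lost its call with the authors' factors (-0.29, edgeR, adjusted p = 0.0734) and with limma on the authors' values.

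The subunit Rela rose (0.47 ± 0.15, edgeR, adjusted p = 0.0225), and so did Nfkbiz (0.73 ± 0.18), which encodes the nuclear protein I-kappa-B-zeta. The call of Rela was lost without P14 samples 4 and 5 (0.36, edgeR, adjusted p = 0.0625) and without Polr1b among the reference genes, and its highest level, 4363 scaled counts, was in P28 sample 138. Of 6 present MAP kinase genes, 0 passed, with Map4k1 at -0.61 ± 0.30 and Map4k4 at -0.09 ± 0.15.

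Textbook target genes of NF-kB numbered 12 among the present genes. Beside 16.7% of all present genes higher and 13.9% lower, 3 of the 12 rose, 2 fell and 7 missed the threshold. Those that rose were Tnf, the surface protein Cd83 (0.67 ± 0.16) and the cytokine Il1b (0.54 ± 0.15), and those that fell were Relb and Nfkb1, which also stand in the list of NF-kB factors. Nfkbia, the inhibitor that NF-kB induces, did not pass (0.38 ± 0.16). With P14 samples 4 and 5 left out, the list of NF-kB targets had 3 genes that rose and 5 that fell, that of MAP3 kinases, IKK and NF-kB had 1 and 5, and the MAP kinases had 0 and 3. The receptors then had 2 and 2, the ligands 2 and 1, the route to TRAF6 5 and 2, and the adaptors and ubiquitin editors 0 and 1. In that fit 68 of all 366 present genes were higher and 90 (24.6%) lower. On the scale of the positive controls, only Tnfsf13b rose among the genes of the 8 lists, while the genes that fell numbered 5 of the NF-kB targets, 5 of MAP3 kinases, IKK and NF-kB, 2 of the MAP kinases, 3 of the receptors, 2 of the ligands, 2 of the route to TRAF6, 2 of RNA sensing and 1 of the adaptors and ubiquitin editors. On that scale 8 of all 366 present genes were higher and 127 (34.7%) lower, and Tnfrsf11a (0.86), Tnf (0.14) and Nfkbiz (0.05) lost their calls.

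**Figure D5:**
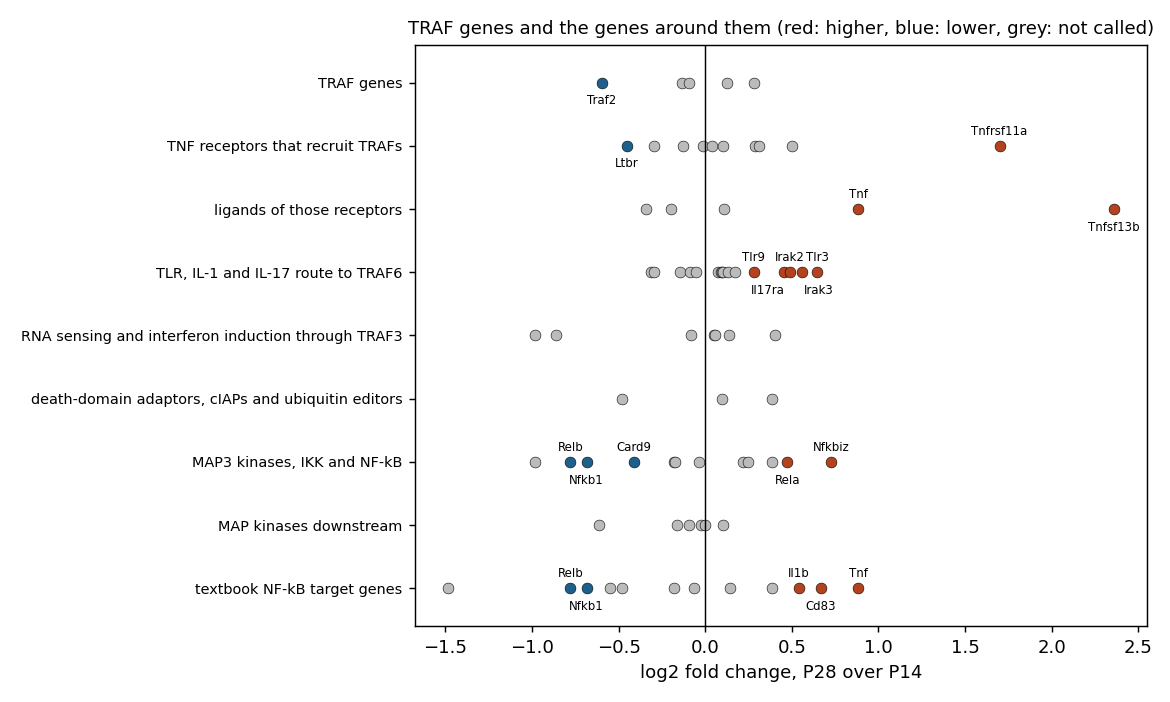
Log2 fold change, P28 over P14, of every present gene of 8 lists and of the 5 tested TRAF genes; genes that passed edgeR's test at a false discovery rate of 0.05 are named. Traf2 is the only TRAF gene among them; Tnfsf13b at 2.36 and Tnfrsf11a at 1.70 lie farthest to the right.

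With the mean of each age removed, Pearson's r of log2 scaled counts over the 12 samples, a description with no test, was between -0.56 (Traf2 and Traf5) and 0.58 (Traf3 and Traf6) over the 10 pairs. The first was 0.02 without P14 samples 4 and 5, and the second was -0.02 without P28 sample 138. The genes whose values ran most like those of Traf2 were Nfkb1 (r = 0.94), Cybb (0.94) and Tlr5 (0.93), and without P14 samples 4 and 5 these were 0.63, 0.79 and 0.66. Cybb was above background in 6 of 6 P28 and 0 of 6 P14 samples, so its P14 values here are background counts. For Traf5 they were Litaf (0.95), Rae1 (0.86) and Ccl12 (0.84), and without P14 samples 4 and 5 these were 0.86, 0.73 and 0.51. For Traf6 they were Jak2 (0.97), C1qbp (0.94) and Notch1 (0.92). Without P28 sample 138 the values for Traf6 were 0.83, 0.90 and 0.81. For Traf3 the highest were Itgal (0.69), Tap1 (0.65) and Cfi (0.65), and without P28 sample 138 these were 0.64, 0.50 and 0.51. Itgal was above background in 0 of 6 P28 and 6 of 6 P14 samples, so its P28 values are background counts. For Traf4, near background, they were Tal1 (0.75), Icam1 (0.67) and Il27 (0.66). All such values share the lane's scale factor.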

How the data were processed

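Barcode counts of 573 probes were taken as the authors deposited them, as raw counts with no scaling. The authors' second table, used here as a score, holds values scaled to positive controls and reference genes, per the labels; within a sample they are a constant multiple of the raw counts to within 1.25%. That deposited table also holds a fold ratio and a p-value per gene from a test whose kind it does not name. No per-sample column was left without a sample.

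Groups follow the age in the titles. The 366 present genes were fitted on raw counts with edgeR 4.0.16 in R 4.3.3 (glmQLFit, glmQLFTest). The model held age alone, with the geometric mean of Alas1, Gapdh, Oaz1, Polr1b, Sdha and Tbp as library size, and p-values were adjusted by Benjamini-Hochberg at 0.05. After this scaling some reference genes did not overlap between the ages. Polr1b (114 to 156 scaled counts at P28, 183 to 244 at P14) and Oaz1 (4247 to 5082 and 5273 to 5912) were lower at P28. Gapdh was higher (5307 to 5847 and 3393 to 5192), and Alas1, Sdha and Tbp overlapped. Ratios of counts, with 1 added, were tested by exact permutation in scipy 1.17.1. Alternatives were other scalings and filters, DESeq2 1.42.0, limma 3.58.1 and each sample left out. In simulated counts for these genes, 73 of 100 changes of 1.5-fold and 95 of 100 of 2-fold were called. PCR copies repeat molecules, so counting error understates the true error. Named genes are all members and, of each list, those called plus up to 3 with the next smallest p; 1 gene so chosen is not reported here. The members and lists were chosen with earlier results of these data known.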

Additional observations from a re-analysis of the deposited data

Results flagged for a closer look

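Of 80 groups of 6 samples examined (TRAF genes, named genes of the lists and ratios), 8 held a sample whose gap to the nearest other exceeded Dixon's limit for 6 values, and chance flags about 1 in 20 such groups. Of the 8, 5 were P28 sample 138. Its Traf6 level was 5806 scaled counts beside 2242 to 2852 in the other P28 samples, and its Rela level was 4363 beside 2533 to 2991. In the same sample the ratio of Traf2 to Traf6 was 0.143, that of Traf3 to Traf6 was 0.134 and that of Traf5 to Traf6 was 0.107, each the lowest of the age. These 3 ratios share the Traf6 count and are not separate observations. P28 sample 137 had 670.2 scaled counts of Traf5, with 604 to 623 in the other P28 samples. P14 sample 25 had 353 scaled counts of Irf7, with 65.3 to 142 in the other P14 samples. P28 sample 119 had 10427 scaled counts of Nfkbia, with 6601 to 7720 in the other P28 samples.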

How the results depend on the processing

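Traf2 kept its direction and call in all 28 alternatives, and the Traf2 to Traf6 ratio in all 15 run for it. Of those 15, the 12 that left out 1 sample could not have changed the call of that ratio, because its ages do not overlap. On the scale of the positive controls alone, 2 TRAF genes passed, Traf4 at -0.83 (log2, P28 over P14) besides Traf2. On that scale 36.9% of the 366 present genes passed, and their median log2 fold change was -0.74. There the sign turned for Traf5 (-0.55), Traf6 (-0.46), Tnfrsf4 (-0.23), Tlr3 (-0.15), Irak3 (-0.20), Irak2 (-0.31), Il17ra (-0.33), Tlr9 (-0.45), Irf5 (-0.38), Fadd (-0.44), Casp8 (-0.73), Rela (-0.32), Cd83 (-0.12), Il1b (-0.22) and Nfkbia (-0.37). With total counts, where 40.2% of the 366 genes passed, 2 TRAF genes passed, Traf3 (-0.26) being the second, and Traf5 (-0.041) and Casp8 (-0.028) turned. Casp8 also turned without Polr1b (-0.024). The authors' factors turned Traf3 (0.029) and Map4k4 (0.041), as did limma on the authors' values (0.027 and 0.065). Without P14 samples 4 and 5, where 43.2% of the 366 genes passed, 2 TRAF genes passed (Traf5 at 0.23). Without those samples 6 ratios passed, Traf3 to Traf5 at -0.33 and Traf3 to Traf6 at -0.36 among them. Casp8 (-0.14) and Traf3 to Traf4 (-0.0059) turned there. Subtracting the negative-control mean turned Traf2 to Traf4 (0.022). The causes were not tested.

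With 1 sample left out, 1 to 5 ratios passed. The differences were -0.59 to -0.42 for Traf2 to Traf3, -0.84 to -0.63 for Traf2 to Traf5, -0.29 to -0.18 for Traf3 to Traf5, -0.37 to -0.12 for Traf3 to Traf6 and -0.15 to 0.13 for Traf5 to Traf6, positive without P28 sample 138. Casp8 (-0.020 to 0.20) was below 0 without P14 sample 5. Calls were gained for Irf5 without P14 sample 16 or 81 or P28 sample 138, for Tnfaip3 without P14 sample 4 or 5, for Map4k1 without P14 sample 5, for Nfkbia without P14 sample 16 and for Myd88 without P14 sample 25. Traf4 could not be tested on the authors' values or among genes above background in all samples. No paired analysis was possible because each animal has its own number, shared by no P28 and P14 pair. The counts of Traf1 and Traf4 lie near background, which limits what can be read from them, and the part of depth in this was not tested.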
